A study of Mus musculus with 9 samples.

Results

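Olfactory receptor genes were described here as a gene family across 3 whole-genome bisulfite libraries of mouse splenic B cells. The members are the autosomal genes of the GRCm38 annotation whose symbol is Olfr followed by a number, each taken with 1 kb on both sides. Of 1428 such symbols, 1420 lay on autosomes and 8 on the X chromosome. To count as measured, a member needed 3 CpGs or more and, in each library, 30 CpG reads or more, which held for 1335 of the 1420 (1046 protein-coding genes, 288 pseudogenes and 1 of another class), out of 44536 autosomal genes that passed the same limits. Of the 85 that did not pass, 4 had fewer than 3 CpGs and 81 had too few reads, and 58 of the 85 were protein coding. The 40 members just inside the read limit had median levels of 72.9% in HOM, 79.2% in HET and 80% in WT, and the 23 just outside it had 72%, 78.6% and 79.3% in the same order of libraries.

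The mice were homozygous (HOM), heterozygous (HET) or wild type (WT) for a point mutation of Kmt2d, an A>T change at position 98835228 of chromosome 15 that replaces an isoleucine of the protein with asparagine (Ile5482Asn). KMT2D is a histone methyltransferase that places H3K4 monomethylation. B cells were enriched from spleen by removing other cells with magnetic beads, and the labels give neither the age nor the sex of the mice. In the table, ENU, a chemical mutagen, stands in the column names of HOM and HET and not in that of WT, so the genotype cannot be told apart from that history. The labels list 2 B cell samples per genotype, while the deposited table has 1 column pair for each genotype. Such a pair is called a library below, and differences between genotypes have no replicate check. Intervals are 95% counting intervals, and Fisher's exact tests on reads compare these libraries, not the genotypes.

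Olfactory receptors are G protein-coupled receptors that detect odorants on the cilia of olfactory sensory neurons. The genes sit in tandem clusters, a mature neuron transcribes a single receptor allele, and in mouse olfactory neurons the silent copies are packed in heterochromatin marked by trimethylated H3K9 and H4K20. Class I receptors, related to those of fish, sit together around the beta-globin genes, and class II receptors fill the other clusters. Most of these genes have no known role in B cells.

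The libraries held 215454437 CpG reads in HOM, 282430649 in HET and 200824258 in WT. Within member windows this gave 9.63 reads per CpG in HOM, 13.0 in HET and 9.36 in WT. Over all autosomal CpGs the methylation level was 72.3% in HOM, 75.5% in HET and 76.0% in WT, so each difference below stands beside a difference of the whole genome. The mitochondrial level, a gauge of unconverted cytosines, lay between 0.492% and 0.607%. Windows at the CpG-richer end of 10 B cell marker genes had a median of 36.8% in HOM, 31.0% in HET and 45.4% in WT, with Pax5 at 4.77%, 4.52% and 9.42%. The same windows of 8 myeloid genes had medians of 70.8%, 76.7% and 71.7%, and those of 10 T cell genes 54.1%, 62.8% and 52.8%. For 4 erythroid genes the medians were 54.9%, 58.2% and 74.3%. The part of such differences in the results below was not tested.

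A member window was short and poor in CpGs. Measured protein-coding members had a median length of 951 bp, and 844 of the 1046 spanned at most 1100 bp, 744 of these with a length that is a multiple of 3, as coding models without untranslated exons have. A window held a median of 14 CpGs, against 130 in other genes. RefSeq lists promoters of GRCm38.p6 (250 bases before to 50 after the annotated start) for 889 of the measured members. The median olfactory receptor promoter held 1 CpG, and 33.5% of 942 promoters held none, against a median of 8 CpGs and 4.37% without any in 30454 other promoters. At least 5 CpGs were found in 3.61% of olfactory receptor promoters and in 64.2% of the others. Where a model lacks untranslated exons, this sequence surrounds the coding start and may lie away from the start of transcription.

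Promoters of 6 members show this range, with every CpG in capitals. They are those of Olfr95 and Olfr94, which carry the lowest levels of the chromosome 17 cluster described below, of Olfr1513, Olfr101 and Olfr73, whose windows were called lower in HOM than in WT, and of Olfr283, which lies in the cluster nearest to Kmt2d. Those of Olfr73 and Olfr283 were chosen after their values were seen.
Olfr95, chr17:37211802-37212101, minus strand: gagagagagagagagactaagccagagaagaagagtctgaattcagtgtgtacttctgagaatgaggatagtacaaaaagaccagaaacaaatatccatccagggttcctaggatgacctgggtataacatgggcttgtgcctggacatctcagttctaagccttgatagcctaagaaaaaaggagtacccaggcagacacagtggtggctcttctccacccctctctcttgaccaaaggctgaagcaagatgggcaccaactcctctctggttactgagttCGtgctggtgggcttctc
Olfr94, chr17:37197917-37198216, minus strand: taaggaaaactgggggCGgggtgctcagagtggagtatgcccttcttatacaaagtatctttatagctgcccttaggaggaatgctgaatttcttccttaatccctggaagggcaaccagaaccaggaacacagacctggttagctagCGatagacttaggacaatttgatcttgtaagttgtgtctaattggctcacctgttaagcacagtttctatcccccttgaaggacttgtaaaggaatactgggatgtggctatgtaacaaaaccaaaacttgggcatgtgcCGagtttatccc
Olfr1513, chr14:52349995-52350294, minus strand: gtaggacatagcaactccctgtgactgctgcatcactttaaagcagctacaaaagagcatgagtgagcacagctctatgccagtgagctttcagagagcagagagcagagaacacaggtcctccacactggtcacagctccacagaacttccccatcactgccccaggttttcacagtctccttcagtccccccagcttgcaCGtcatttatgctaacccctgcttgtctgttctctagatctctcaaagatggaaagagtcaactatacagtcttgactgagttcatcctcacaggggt
Olfr101, chr17:37300435-37300734, minus strand: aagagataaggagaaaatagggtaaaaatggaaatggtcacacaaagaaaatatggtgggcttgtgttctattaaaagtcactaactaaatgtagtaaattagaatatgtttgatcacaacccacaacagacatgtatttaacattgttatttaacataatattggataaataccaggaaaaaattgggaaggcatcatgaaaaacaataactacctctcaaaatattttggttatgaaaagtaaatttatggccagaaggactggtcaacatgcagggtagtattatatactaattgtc
Olfr73, chr2:88035088-88035387, minus strand: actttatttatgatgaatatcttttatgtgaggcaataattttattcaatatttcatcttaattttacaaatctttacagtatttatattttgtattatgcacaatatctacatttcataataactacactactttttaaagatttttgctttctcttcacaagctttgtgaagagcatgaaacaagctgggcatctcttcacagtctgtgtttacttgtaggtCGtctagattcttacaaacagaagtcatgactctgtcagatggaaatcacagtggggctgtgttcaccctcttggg
Olfr283, chr15:98379148-98379447, minus strand: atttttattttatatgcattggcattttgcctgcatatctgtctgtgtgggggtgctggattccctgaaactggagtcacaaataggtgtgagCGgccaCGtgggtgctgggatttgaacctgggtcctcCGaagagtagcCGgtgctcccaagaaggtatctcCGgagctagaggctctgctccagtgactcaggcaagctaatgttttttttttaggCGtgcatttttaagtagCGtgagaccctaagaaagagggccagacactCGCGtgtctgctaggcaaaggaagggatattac
The promoter of Olfr101 holds no CpG, those of Olfr95, Olfr1513 and Olfr73 hold 1 each, that of Olfr94 holds 3 and that of Olfr283 holds 9. The letters TAATTA, the core bound by many homeodomain proteins and the same on both strands, were found in 18.7% of olfactory receptor promoters, 4.85% of other promoters and 5.27% of all 31396. The letters CCCNNGGG, a core of sites bound by EBF proteins and also the same on both strands, were found in 3.08% of olfactory receptor promoters, 14.2% of the others and 13.9% of all. These sets were not matched in base composition, and its part in the shares of both motifs was not tested. Neither motif overlaps the other, and none of the 6 printed promoters holds either.

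Olfactory receptor genes were highly methylated in every library, above the average gene, and close to other genes with few CpGs. The median level was 78.5% in HOM, 81.4% in HET and 82.3% in WT, against 73.9%, 77.0% and 77.5% in the 43201 other genes. The mean level was higher than in other genes by 9.81 points in HOM (95% interval 9.59 to 10.03), by 9.58 points in HET (9.40 to 9.76) and by 10.1 points in WT (9.86 to 10.3). Set against the 8087 other genes with at most 30 CpGs the sign turned, with olfactory receptor genes lower by 1.29 points in HOM, 1.63 in HET and 1.33 in WT, each with an interval below 0. The 643 protein-coding genes among those had lower medians than the olfactory receptor genes, at 76.7% in HOM, 79.8% in HET and 80.3% in WT, so the sign depends on the kind of CpG-poor gene. Vomeronasal receptor genes, the pheromone receptors of a separate organ, had medians of 76.7% in HOM, 79.4% in HET and 80.4% in WT over 436 genes, and olfactory receptor genes exceeded their mean by 1.74 points in HOM (1.29 to 2.18).

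The spread between members was narrow. All 3 levels were at least 70% in 78.1% of members, against 58.3% of other genes, and all 3 were below 50% in 5 members (0.375%), against 13.3% of other genes. Members with few CpGs were not the highest. Medians in WT ran from 79.6% in the 180 members with 3 to 8 CpGs to 83.8% in the 256 with 21 to 40 CpGs. The 8 members on the X chromosome, left out of every count, had medians of 73.5% in HOM, 82.1% in HET and 77.1% in WT.

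**Figure D1:**
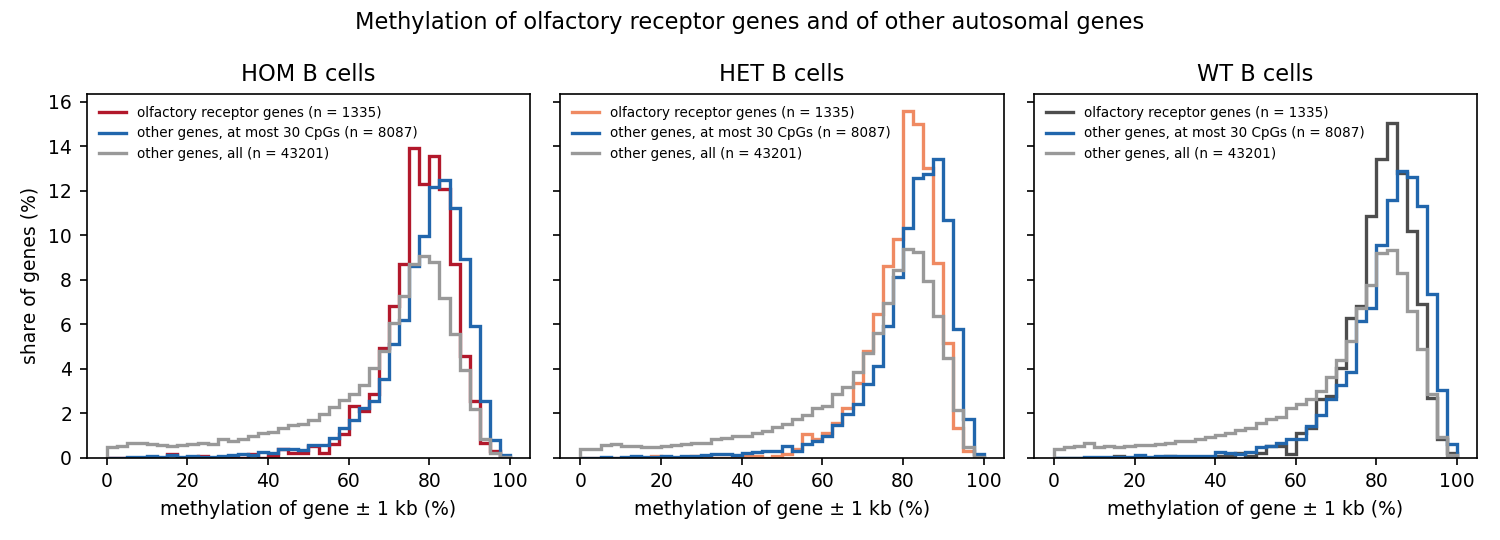
Share of genes (y, percent) by methylation of the gene with 1 kb on both sides (x, percent, bins of 2.5 points) in the HOM, HET and WT libraries. Olfactory receptor genes (coloured, n = 1335) form a single peak with medians of 78.5%, 81.4% and 82.3%, close to other genes with at most 30 CpGs (blue, n = 8087) and without the low tail of all other genes (grey, n = 43201).

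Around the annotated start of 885 members no dip was present. By their lengths, many of these starts appear to be those of coding models without untranslated exons. The start of transcription can then lie elsewhere, and levels there were not measured as such, here or in the promoters below. In bins of 500 bp from 5 kb before to 5 kb after the start, the summed level stayed between 74.6% and 79.0% in HOM, 77.1% and 82.4% in HET, and 78.7% and 82.8% in WT. At the starts of 12437 other protein-coding genes the lowest bin stood at 7.48% in HOM, 8.30% in HET and 8.10% in WT. The CpG content of members reached 8.45 per kb at most, inside the gene, against 59.4 per kb near other starts. Of the olfactory receptor promoters, 247 had at least 10 reads in every library, and their median level was 78.7% in HOM, 83.1% in HET and 84.2% in WT, against 5.66%, 5.81% and 5.96% for other promoters. In these promoters levels below 20% were present in 3 cases in HOM, 2 in HET and 2 in WT.

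**Figure D2:**
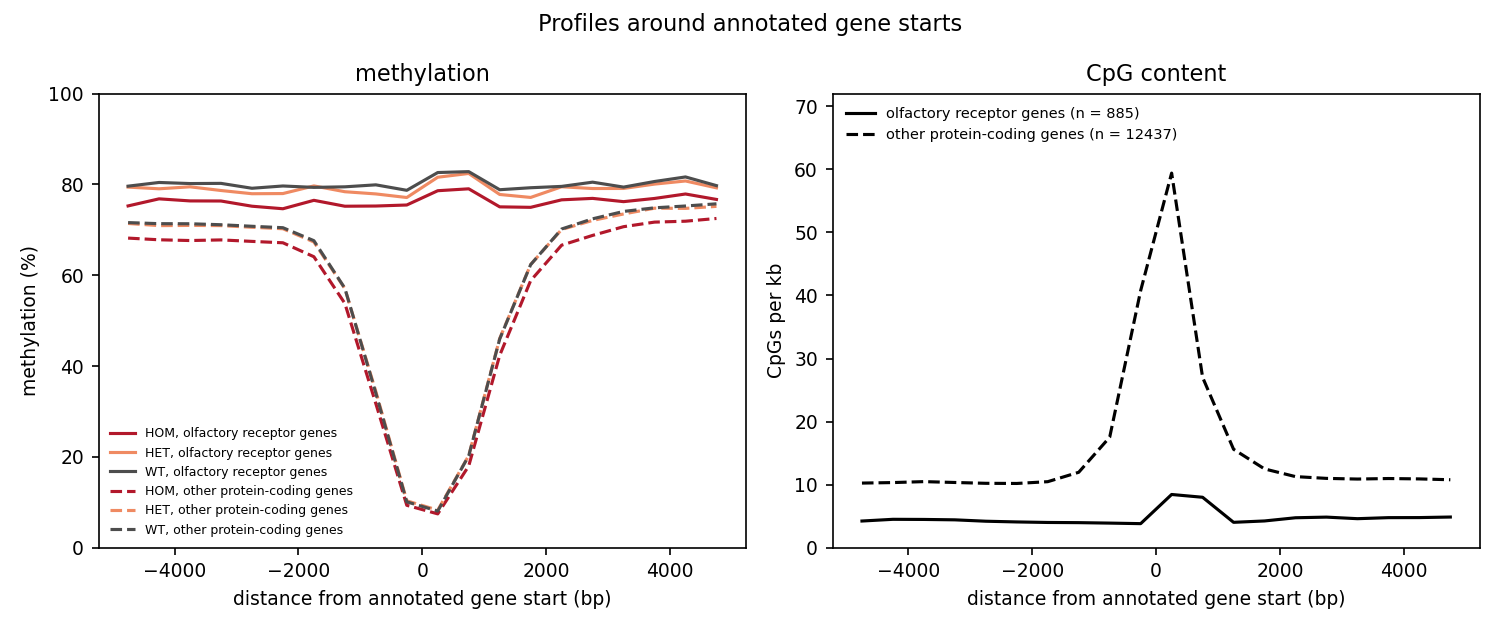
Summed methylation (left, percent) and CpGs per kb (right) against distance from the annotated gene start (x, bp) for olfactory receptor genes (solid, n = 885) and other protein-coding genes (dashed, n = 12437), with HOM, HET and WT in red, orange and grey on the left. The solid lines stay at or above 74.6% at every distance, while the dashed lines drop to 7.48% in HOM, 8.30% in HET and 8.10% in WT beside the start.

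Members were less methylated in HOM than in WT on average, by about as much as other genes were. The mean difference of HOM minus WT over members was -3.50 points (95% interval -3.80 to -3.20), and it differed from that of other genes by -0.26 points (-0.56 to 0.04). HET minus WT averaged -0.89 points (-1.16 to -0.62), lower than in other genes by 0.48 points (interval of the difference -0.76 to -0.21), and HOM minus HET averaged -2.62 points (-2.90 to -2.33), which differed from other genes by 0.23 points (-0.06 to 0.51). Once levels were scaled to the same autosomal level in each library, the mean of HOM minus WT turned to 0.45 points, that of HOM minus HET turned to 0.81, and that of HET minus WT was -0.36. HOM lay below WT in 983 of 1335 members (73.6%), against 81.8% of all genes tested and 74.5% of other genes with at most 30 CpGs.

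A member was called when its level differed by at least 10 points and Fisher's exact test, adjusted by Benjamini-Hochberg over all 44536 genes, gave a value below 0.05. HOM minus WT gave 6 higher and 88 lower members, 7.04% of those measured, against a background of 4.56% over all genes (0.397% higher and 4.16% lower) and 8.59% in other genes with at most 30 CpGs. HET minus WT gave 14 higher and 30 lower members, 3.30%, against 1.79% over all genes (0.712% higher and 1.08% lower) and 3.62% in the CpG-poor ones. HOM minus HET gave 12 higher and 64 lower members, 5.69%, against 3.55% (0.393% higher and 3.15% lower) and 7.51%. In each comparison the members' share lay between the background of all genes and that of CpG-poor genes. With levels scaled to equal autosomal methylation the split was 32 higher and 19 lower for HOM minus WT, 20 and 28 for HET minus WT, and 34 and 20 for HOM minus HET. Reads of neighbouring CpGs come from the same fragments, and when every count was divided by the number of CpGs within 150 bp of read, the calls came to 2 higher and 14 lower, 1 and 1, and 1 and 10. These were 1.20%, 0.150% and 0.824% of members, against 1.54%, 0.220% and 1.20% over all genes. With this division the members' share thus lay below the background of all genes.

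Summed reads also depend on which CpGs of a window a library covered. Each difference was therefore read again CpG by CpG, with every CpG weighted alike in both libraries and the Cochran-Mantel-Haenszel test, a choice made after the values were seen. This gave 6 higher and 85 lower members for HOM minus WT, 6.82% of those measured, against 2.44% over all genes and 7.43% in other genes with at most 30 CpGs. HET minus WT gave 7 higher and 10 lower members, 1.27%, against 0.669% and 2.02%, and HOM minus HET gave 11 and 67, 5.84%, against 2.02% and 6.38%. Of the calls made on summed reads, 64 of 94, 14 of 44 and 46 of 76 were made both ways, in the order HOM minus WT, HET minus WT and HOM minus HET. Values read this way are called CpG-weighted below. They are given for the main differences that they move by over 1.5 times or whose call they end, and not for every member.

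Class I and class II receptors differed in level but not detectably in the change between libraries. The 153 measured members of the chromosome 7 cluster around beta-globin (102476773 to 105369317), taken as class I, had median levels of 82.1% in HOM, 85.0% in HET and 86.1% in WT, against 77.7%, 81.0% and 81.7% in the 1182 members of all other clusters. The mean was higher in class I by 5.10 points in HOM (4.56 to 5.65), 4.71 in HET (4.26 to 5.15) and 5.29 in WT (4.79 to 5.79). The difference HOM minus WT averaged -3.67 points in class I, and differed from class II by -0.18 points (-0.92 to 0.55). Class I windows were also richer in CpGs, with a median of 19 against 14. Protein-coding members exceeded pseudogenes by 0.87 points in HOM (0.29 to 1.45), 0.66 in HET (0.19 to 1.13) and 0.84 in WT (0.32 to 1.37).

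Members less than 1 Mb apart were joined into 62 clusters, of which 30 had at least 5 measured members and held 1285 of them, and these 30 alone are ranked below. Pooled over member windows, levels of these 30 clusters ranged over 62.2% to 84.2% in HOM, 69.5% to 85.5% in HET and 71.3% to 87.2% in WT. HOM lay below WT in 30 of 30 clusters, with the interval below 0 in 29, but after scaling to equal autosomal levels in 12 of 30. HET lay below WT in 23 clusters, with 10 intervals below 0 and 1 above, and after scaling in 15. CpG-weighted, HOM lay below WT in 30 of 30 clusters, between -6.04 and -1.67 points, and HET below WT in 23. Pooled over the 30 clusters, member windows stood above their surroundings, with 77.3% in HOM, 80.2% in HET and 81.1% in WT inside the windows, 71.9%, 75.2% and 75.8% between them, and 68.0%, 71.5% and 71.7% within 500 kb on both sides of the clusters. Several clusters went the other way. On chromosome 17 the member windows had 62.2% in HOM, 69.5% in HET and 71.3% in WT, against 74.1%, 76.8% and 78.7% between them.

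**Figure D3:**
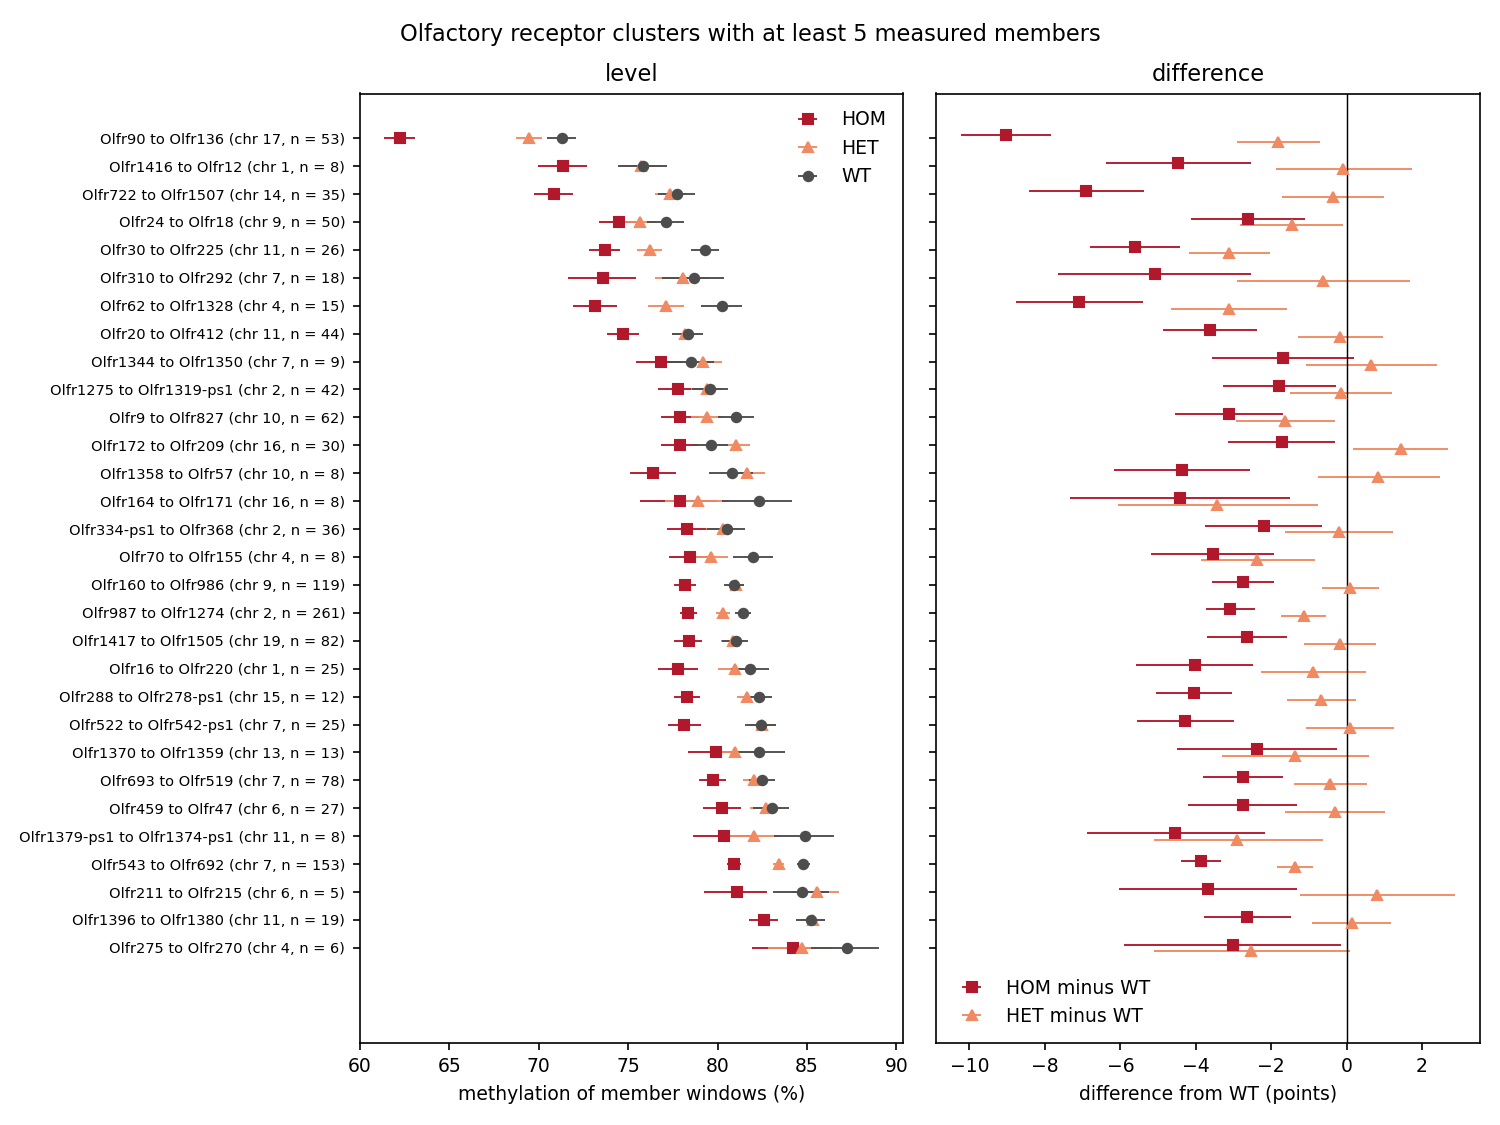
Methylation of the 30 clusters with at least 5 measured members (left, percent) and difference from WT (right, points), rows from the lowest mean level at the top, with 95% counting intervals as bars. The chromosome 17 cluster at the top, with Olfr94 and Olfr95 included, is lowest in level and, with reads summed, in HOM minus WT (-9.03 points). HOM lies below WT in 30 of 30 clusters before scaling and in 12 of 30 after it.

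The cluster on chromosome 17 (37085191 to 38336097, Olfr90 to Olfr136), next to the major histocompatibility complex, was the lowest of the 30 in every library and, with reads summed, differed most between HOM and WT. Its 53 measured members had a pooled level of 62.2% in HOM (61.4 to 63.1), 69.5% in HET (68.7 to 70.2) and 71.3% in WT (70.4 to 72.1). HOM minus WT was -9.03 points (-10.2 to -7.83), and HET minus WT was -1.81. The difference HOM minus WT was below 0 in 45 of 53 members with a median of -7.09 points. Of the 53, 7 were called lower, where 4.16% of all genes were, namely Olfr93, Olfr95, Olfr101, Olfr103, Olfr123, Olfr135 and Olfr138. Leaving out any 1 member kept the pooled HOM minus WT between -9.32 and -7.43 points. Without both Olfr94 and Olfr95 the levels were 73.4% in HOM, 79.0% in HET and 80.5% in WT, a difference of -7.11. Those levels are above the 70.8%, 77.4% and 77.7% of the chromosome 14 cluster of Olfr722 to Olfr1507. The lowest rank in level thus rested on Olfr94 and Olfr95. After scaling, HOM minus WT of all 53 members was -5.85 points, still the lowest of the 30. CpG-weighted it was -5.79 points, and the lowest was then the chromosome 7 cluster of Olfr310 to Olfr292, at -6.04. Between its members HOM minus WT was -4.60 points, and within 500 kb on both sides it was -5.20, or -4.20 and -3.60 CpG-weighted.

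**Figure D4:**
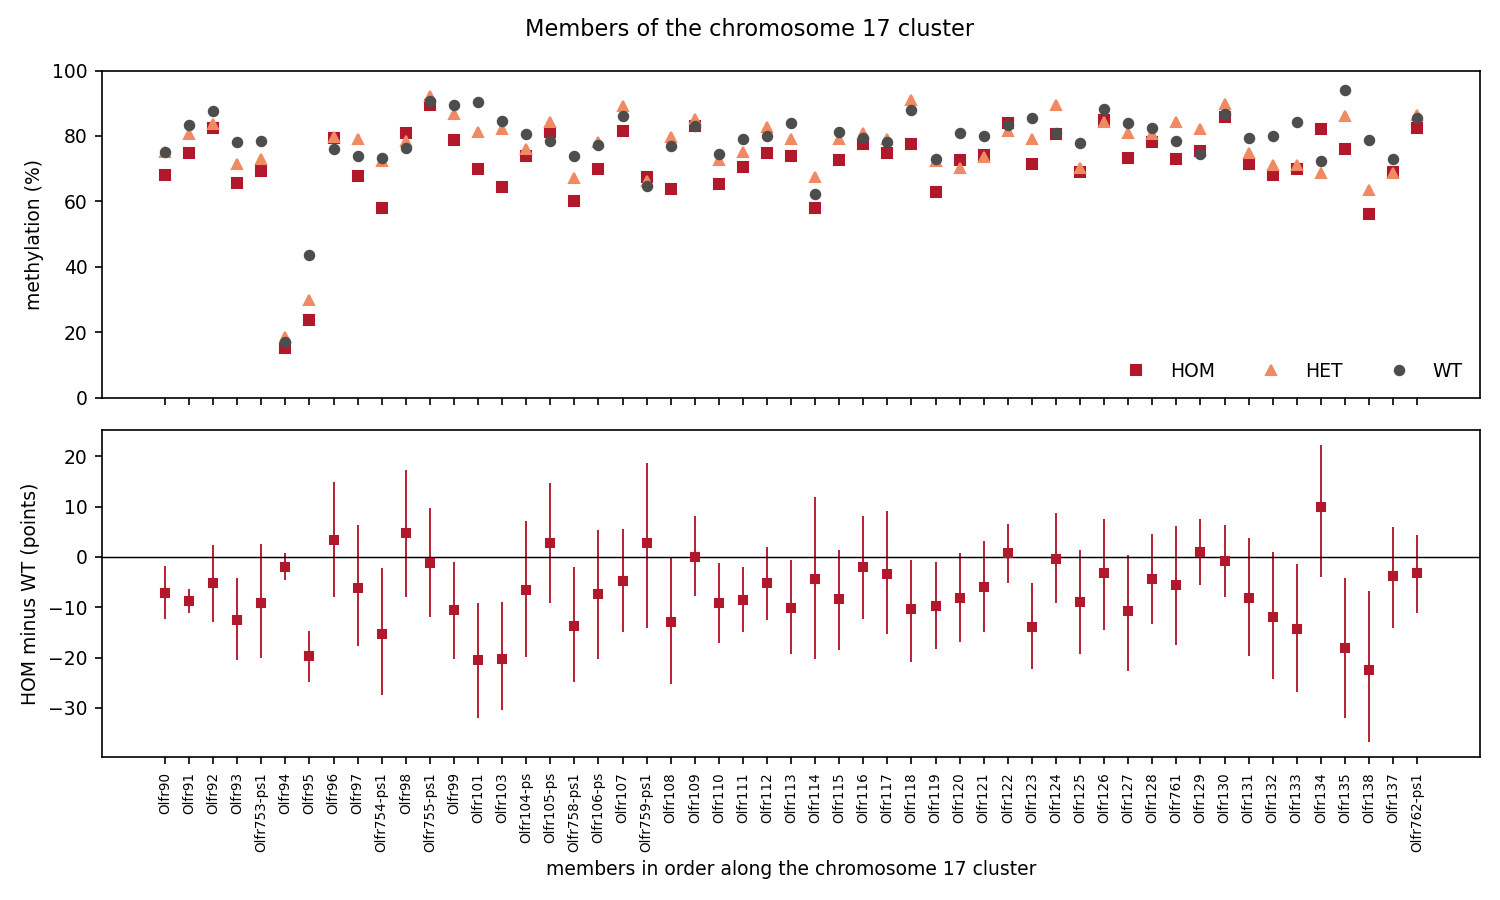
Methylation (top, percent) and HOM minus WT with 95% counting intervals (bottom, points) of the 53 measured members of the chromosome 17 cluster in their order along the chromosome. Olfr94 and Olfr95 stand far below the others in the top panel, and 45 of 53 points lie below 0 in the bottom panel, with Olfr95 at -19.7 points.

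Olfr95 had the lowest adjusted p for HOM minus WT of the called members. The gene (chromosome 17, 37210913 to 37211851, gene ID 258506) has 51 CpGs in its window, with a level of 23.9% in HOM (95% Wilson interval 21.1 to 26.8, 859 CpG reads), 29.9% in HET (27.3 to 32.7, 1090 reads) and 43.6% in WT (39.4 to 47.8, 530 reads). The 3 intervals are separate. HOM minus WT was -19.7 points (-24.8 to -14.6, adjusted p = 4.55e-13 by Fisher's exact test) and HET minus WT was -13.7 points (-18.7 to -8.67, adjusted p = 2.11e-06). CpG-weighted, HOM minus WT was -13.5 points and still called, while HET minus WT was -7.21 points, under the 10 points of a call. The CpGs of the first 500 bp gave 515 of 859 reads in HOM, 654 of 1090 in HET and 237 of 530 in WT. The window held no other gene, and HOM minus WT was called under each of the 9 alternatives run for it. Most of its CpGs lay in the first 500 bp of the gene, where 26 CpGs had 6.99% in HOM, 13.5% in HET and 21.5% in WT. From 500 to 1000 bp the level was 39.2% in HOM, 44.8% in HET and 50.3% in WT, and in the 500 bp before the start it was 61.9%, 71.4% and 76.0% over a single CpG.

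Olfr94, the neighbour of Olfr95 (37196806 to 37197966, gene ID 258219), was the least methylated member and did not differ beyond its counting error between HOM and WT. Its 107 CpGs had 15.2% in HOM (13.5 to 17.1), 18.7% in HET (16.9 to 20.7) and 17.2% in WT (15.3 to 19.3), and HOM minus WT was -1.95 points (-4.65 to 0.72), or -1.11 CpG-weighted. Its 56 CpGs from 500 to 1000 bp inside the gene had 3.02% in HOM, 1.22% in HET and 2.15% in WT, and the 500 bp before the start had 70.5%, 78.6% and 85.0%. The window also overlaps Ubd, which encodes a ubiquitin-like protein.

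**Figure D5:**
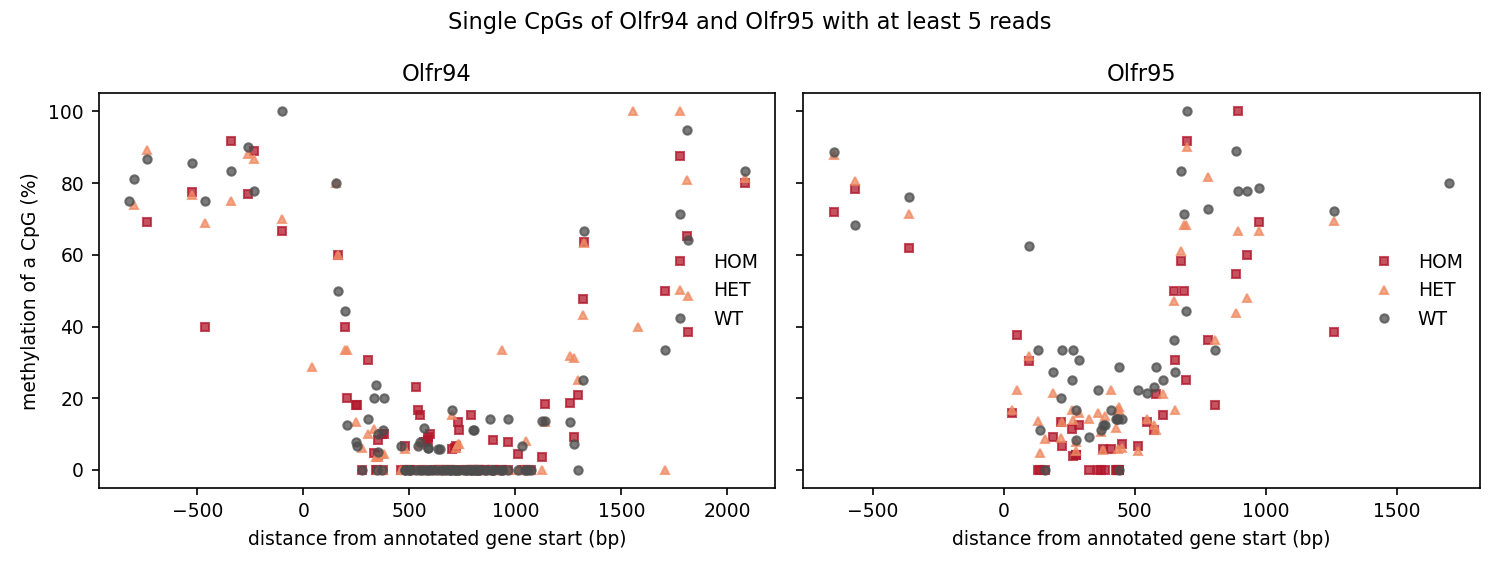
Methylation of single CpGs with at least 5 reads (y, percent) against distance from the annotated gene start (x, bp, positive inside the gene) in Olfr94 and Olfr95, with HOM, HET and WT as red squares, orange triangles and grey circles. Both genes are methylated before the start, and Olfr94 is lowest from 500 to 1000 bp inside the gene. Olfr95 is low in its first 500 bp, at 6.99% in HOM, 13.5% in HET and 21.5% in WT. From 500 to 1000 bp Olfr95 had 39.2% in HOM, 44.8% in HET and 50.3% in WT.

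Such low stretches inside the family were rare. A stretch was defined, after the values were seen, as at least 4 neighbouring CpGs, each with at least 10 reads over the 3 libraries and below 30% in their sum. Of the members 14 held 1 (1.05%), against 1.83% of vomeronasal receptor genes. Among windows of at most 30 CpGs the shares were 0.256% of members and 2.25% of other genes, a description with no test. Of the 14, 7 lay wholly inside the gene, in Olfr95, Olfr1342, Olfr550, Olfr420, Olfr1511, Olfr287 and Olfr1358, and those of Olfr94, Olfr658 and Olfr1509 crossed a gene end.

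The stretch of Olfr95 spanned 476 bp (chromosome 17, 37211245 to 37211720) with 28 CpGs at 5.77% in HOM, 12.5% in HET and 20.1% in WT. That of Olfr1342 on chromosome 4 spanned 608 bp with 15 CpGs at 3.69% in HOM, 5.02% in HET and 9.14% in WT, and HOM minus WT was -5.45 points (-10.9 to -1.19). At Olfr550 of class I the 7 CpGs stood at 10.9% in HOM, 10.5% in HET and 10.4% in WT. At Olfr658, also class I, 18 CpGs at the far end of the gene stood at 11.5% in HOM, 26.0% in HET and 13.7% in WT, so HET was the high library there. HET minus WT was 12.4 points at that stretch (6.19 to 18.4), and the whole window was called higher in HET at 51.5%, against 40.8% in WT (adjusted p = 0.0030 by Fisher's exact test), with HOM at 36.0%. CpG-weighted, HET minus WT was 13.1 points at the stretch but 5.46 over the window, which was then not called. The Olfr658 window also overlaps Usp17le-ps, and that of Olfr1509, whose 12 low CpGs had 2.94% in HOM, 3.55% in HET and 2.73% in WT, lies within the T cell receptor alpha locus.

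Beyond chromosome 17, the clusters with the lowest HOM minus WT on summed reads, among those with at least 5 measured members, were those on chromosome 4 (118665519 to 118934840, Olfr62 to Olfr1328) and chromosome 14 (49894258 to 52495695, Olfr722 to Olfr1507). The 15 members on chromosome 4 had 73.2% in HOM, 77.1% in HET and 80.3% in WT, with HOM minus WT at -7.09 points (-8.78 to -5.40). Leaving out 1 member moved this to between -7.52 and -4.69 points. The 35 members on chromosome 14 had 70.8% in HOM, 77.4% in HET and 77.7% in WT, with HOM minus WT at -6.90 points (-8.42 to -5.38). Of these 35, 8 were called lower, where 4.16% of all genes were. Within 500 kb on both sides of the chromosome 14 cluster HOM minus WT was -6.69 points. After scaling both clusters kept a negative difference, at -3.35 and -3.28 points, and CpG-weighted they stood at -4.53 and -4.87.

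Among the same 30 clusters, HET minus WT on summed reads was lowest in the chromosome 16 cluster of Olfr164 to Olfr171, with 77.9% in HOM, 78.9% in HET and 82.3% in WT over 8 members, a difference of -3.43 points (-6.05 to -0.76). Leaving out 1 member moved this to between -5.30 and -1.43 points. The CpG-weighted value was -2.50, and the lowest was then the chromosome 11 cluster of Olfr1379-ps1 to Olfr1374-ps1, at -2.77. Another chromosome 16 cluster, Olfr172 to Olfr209, was the 1 of the 30 with an interval above 0, at 81.0% in HET and 79.6% in WT, with HOM at 77.9%. Its HET minus WT of 1.43 points was not shared by most members, as 16 of 30 lay below 0, with a median of -1.23. Leaving out 1 member moved the pooled value to between -1.03 and 1.78 points.

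The 12 members nearest to Kmt2d lie in a cluster on chromosome 15 (98186011 to 98499471, Olfr288 to Olfr278-ps1), 332 kb from that gene. Their pooled level was 78.3% in HOM (77.6 to 79.0), 81.7% in HET (81.1 to 82.3) and 82.3% in WT (81.6 to 83.0). HOM minus WT was -4.04 points (-5.05 to -3.03) and turned to -0.04 points after scaling, and HET minus WT was -0.67, or -1.04 CpG-weighted. HOM lay below WT in 11 of 12 members. None of the 12 was called in any comparison, where 7.47% of all genes were called in at least 1 of the 3. Olfr287 had 72.9% in HOM, 77.6% in HET and 79.0% in WT, and contains a stretch of 5 CpGs at 3.61%, 3.27% and 3.30%. Olfr281 was the exception, at 83.9% in HOM, 84.9% in HET and 81.5% in WT. CpGs that look like sequence variants, at most 10% in 1 library and at least 70% in another, numbered 5.44 per 10000 CpGs in member windows of the 30 clusters and 8.01 over all autosomes, and leaving them out kept every mean difference within its counting interval.

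With reads summed, several members besides Olfr95 differed by about 20 points between HOM and WT. Olfr308 on chromosome 7 had 46.0% in HOM, 59.4% in HET and 70.4% in WT (HOM minus WT -24.4 points, -34.5 to -13.5, adjusted p = 8.83e-05 by Fisher's exact test). Olfr101 had 70.0% in HOM, 81.2% in HET and 90.5% in WT, and Olfr103 beside it had 64.4%, 82.1% and 84.6%. Olfr1513, in the chromosome 14 cluster, had 66.5% in HOM (60.4 to 72.2), 85.4% in HET (81.5 to 88.7) and 86.0% in WT (80.5 to 90.1), so HOM alone was low. Its difference HOM minus HET of -18.9 points stayed called after that division by CpGs per read, and its HOM minus WT did not. Olfr1510 had 44.2% in HOM, 55.4% in HET and 63.4% in WT. Its HOM minus WT of -19.2 points was -10.3 CpG-weighted and still called.

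Of the 6 members called higher in HOM than in WT, 5 lie on chromosome 9. The cluster there of Olfr160 to Olfr986, with 119 measured members, held 4 of them beside 5 members called lower. That of Olfr24 to Olfr18, with 50 measured members, held 1 and none called lower. Over all genes tested, 0.397% were called higher and 4.16% lower. Olfr893, Olfr897-ps1 and Olfr25 are close neighbours. Olfr893 had 82.4% in HOM (73.3 to 88.9), 89.0% in HET (81.7 to 93.6) and 54.7% in WT (42.6 to 66.3), on 15 CpGs with 91, 109 and 64 reads. WT was the low library, and HOM minus WT of 27.7 points (adjusted p = 0.0010) and HET minus WT of 34.3 points (adjusted p = 1.34e-05) were both called by Fisher's exact test, with all CpG reads and after the division by CpGs per read. Part of this rests on CpGs that were not read in every library. Over the 10 CpGs with reads in all 3, the levels were 86.3% in HOM, 90.3% in HET and 72.3% in WT, so that HOM minus WT was 13.96 points and HET minus WT 18.0 points. CpG-weighted, over CpGs read in both compared libraries, HOM minus WT was 25.6 points and HET minus WT 22.9, both still called. Olfr938 had 86.0% in HOM, 71.5% in HET and 70.9% in WT. Olfr831-ps1, a pseudogene, had 83.8% in HOM, 71.3% in HET and 62.0% in WT.

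In some members HET was, with reads summed, the library that stood apart. Olfr64, in the class I cluster beside beta-globin, had 92.6% in HOM (87.0 to 96.0), 69.4% in HET (62.8 to 75.3) and 84.2% in WT (77.7 to 89.0), and HOM minus HET was 23.2 points (adjusted p = 6.71e-07 by Fisher's exact test). CpG-weighted, that difference was 6.68 points and not called, while HET minus WT was -18.2 and called. Olfr1176 had 97.1% in HET and 80.8% in WT, with 82.5% in HOM. Its HET minus WT stayed called CpG-weighted, at 15.3 points, while its HOM minus HET of -14.6 points became -9.95 and lost its call. The pseudogene Olfr241-ps1, which lies within the immunoglobulin heavy chain locus on chromosome 12, had 43.4% in HOM (32.9 to 54.6), 85.5% in HET (78.5 to 90.5) and 60.7% in WT (47.6 to 72.4). Its HOM minus HET of -42.1 points (-53.8 to -28.9, adjusted p = 5.71e-09 by Fisher's exact test) was the most negative called among named members, on 10 CpGs, and CpG-weighted it was -24.1 points. The HET minus WT of this pseudogene, called at 24.8 points on summed reads, was 13.7 CpG-weighted and not called. Its HOM minus WT was -13.3 points that way, also not called, so WT then lay between the other libraries. The 52 members with another gene in the window had medians of 78.9% in HOM, 83.5% in HET and 83.8% in WT.

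Neighbouring members were also read together, in 1084 overlapping runs of 7, of which the extremes are given as values chosen after they were seen. Over all runs HOM minus WT had a median of -3.33 points, with 5% of runs below -7.87 and 5% above 0.89. The lowest run was Olfr95 to Olfr99 on chromosome 17, with 44.7% in HOM, 52.3% in HET and 62.0% in WT, although 2 of its 7 members lay above 0, and its difference of -17.4 points was -9.84 CpG-weighted. On chromosome 2 the run Olfr1060-ps1 to Olfr1070-ps1 had 69.3% in HOM, 84.7% in HET and 82.6% in WT, with 6 of 7 members lower in HOM than in WT. The class I run Olfr625-ps1 to Olfr69 on chromosome 7 (103682729 to 103771594) had 80.2% in HOM, 78.8% in HET and 88.4% in WT, and WT was above HOM and above HET in 7 of 7 members. At the other end, Olfr893 to Olfr25 on chromosome 9 had 80.9% in HOM, 78.6% in HET and 73.5% in WT. Its members were split, with 4 above 0 and 3 below in HOM minus WT, and likewise in HET minus WT. CpG-weighted, HOM minus WT of this run was 5.57 points and HET minus WT 0.29 points.

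Of 13 receptors with a known ligand or a well-studied place of expression, 2 were called in a comparison, beside 12.7% of all measured members and 7.47% of all genes called in at least 1 of the 3. Neither member was called CpG-weighted. Olfr73 (mOR-EG), the eugenol receptor, was called lower in both comparisons with WT, at 74.8% in HOM (67.0 to 81.3), 75.2% in HET (68.9 to 80.7) and 87.9% in WT (81.7 to 92.2), with adjusted p = 0.015 for HOM minus WT and 0.022 for HET minus WT by Fisher's exact test. CpG-weighted, these differences were -9.39 and -11.2 points. Olfr1507 (MOR28), whose window lies in the T cell receptor alpha locus, had 74.7% in HOM, 83.5% in HET and 86.3% in WT, and HOM minus WT was called at -11.6 points (-17.4 to -5.63), against -8.42 CpG-weighted. Olfr2 (I7), an octanal receptor, had 86.7% in HOM, 86.8% in HET and 88.5% in WT, a difference HOM minus WT of -1.84 points (-8.59 to 5.08), or -0.77 CpG-weighted. Olfr16 (MOR23), the lyral receptor, had 81.2%, 83.9% and 80.5%. Olfr17 (P2) had 85.6% in HOM, 88.8% in HET and 85.3% in WT.

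Olfr78, which is also transcribed in the carotid body, had 76.9% in HOM, 78.7% in HET and 80.02% in WT, with HOM minus WT at -3.08 points (-6.19 to 0.05). Olfr544, a receptor for azelaic acid, and Olfr558, a receptor for short-chain fatty acids, were lower in HOM than in WT by differences of -6.61 points (-9.91 to -3.30) and -6.21 points (-9.51 to -2.83), which are under the 10 points of a call. Olfr544 had 78.6% in HOM, 83.4% in HET and 85.2% in WT. Olfr160 (M72) had 78.6% in HOM, 83.8% in HET and 85.2% in WT, and its neighbour Olfr151 (M71), annotated as a transcribed pseudogene, had 72.1%, 74.8% and 79.5%, a difference HOM minus WT of -7.32 points that was -12.4 and called CpG-weighted.

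Other genes of the olfactory system were read from fixed lists over the gene with 1 kb on both sides, where 4.56% of all genes were called for HOM minus WT, 1.79% for HET minus WT and 3.55% for HOM minus HET, so lists of this size hold few calls at the background rate. Of 16 genes of signal transduction and receptor trafficking none was called in any comparison, and their median levels were 74.5% in HOM, 77.6% in HET and 78.4% in WT. Omp, the marker protein of mature olfactory neurons, had 88.0% in HOM, 88.9% in HET and 92.9% in WT, and Adcy3, the adenylyl cyclase of olfactory cilia, had 79.8%, 84.4% and 83.8%. Of 17 genes of receptor choice and silencing 1 was called, Lbr, which encodes the lamin B receptor that tethers heterochromatin to the nuclear envelope. Lbr had 58.7% in HOM, 64.4% in HET and 68.7% in WT, with HOM minus WT at -10.02 points. Lhx2 and Emx2, homeodomain regulators of receptor genes, stood at 16.8% and 8.04% in HOM, at 16.8% and 8.30% in HET, and at 16.3% and 7.80% in WT. Of 15 trace amine receptor genes, a separate family of olfactory receptors, none was called, and their medians of 82.7% in HOM, 83.9% in HET and 86.1% in WT stood beside 78.5%, 81.4% and 82.3% in the Olfr genes.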

How the data were processed

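Splenic B cell DNA was bisulfite converted and, per the labels' protocols, read on both ends over 150 bp. In the deposited table the authors give raw counts per CpG, of methylated and covering reads, in 1 column pair per genotype, per the file headers. Neither whether a pair is 1 sample or 2 pooled ones, nor which tools made it, is given in the sources used. The submitters' processing notes name the build mm10 and 2 tool sets, Bismark with Bowtie2, Trim Galore 0.2.8 and Picard 1.91, or BWA 0.7.13, Picard 2.3.0 and MethylDackel. Blood samples were not analysed here. Of the B cell marker genes, some are not reported singly here.

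Levels were methylated over covering reads, summed over the gene with 1 kb on both sides (GRCm38.p6, RefSeq). No strand or repeat filter was applied, and reads shared by near-identical receptor genes were not identified here. Intervals are Wilson's for levels, Newcombe's for differences and normal for means over genes. They cover counting error only and treat reads as independent. Calls used Fisher's exact test, two-sided and adjusted by Benjamini-Hochberg over 44536 genes, tested on simulated data (Python 3.11.15, numpy 2.4.6, scipy 1.17.1). Named members are, among those with at least 60 reads per library in the comparison, the most different called ones in each direction, plus the lowest and highest levels, the chromosome 15 cluster and receptors of known role. Members, lists and runs were chosen with earlier results of these data known. Alternatives changed coverage limits, flanks, scaling, CpG and gene filters, thresholds, read independence and, chosen after the values were seen, the weight of each CpG (Mantel-Haenszel weights).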

Additional observations from a re-analysis of the deposited data

How the results depend on the processing

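No paired analysis was possible because the table has 1 column pair per genotype, so leaving out a replicate and a replicate block were not run either. Precision is limited by depth, at a median of 126 CpG reads per member in HOM, 170 in HET and 127 in WT, where counting error alone gives HOM minus WT a spread of 5.58 points (SD), against 6.81 points seen. Near-identical receptor genes, an unlabelled strain background and the mixed origin of the columns limit single members further. The cause of each change below was not tested.

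Called members numbered 155 at 5 points, 47 at 15 points and 218 at 10 points with no test for HOM minus WT, against 94. The shares were 11.6%, 3.52% and 16.3% of members, against 23.9%, 1.17% and 6.09% of all genes. Called members numbered 21 at 15 points and 133 with no test for HET minus WT, against 44, and 137, 34 and 177 for HOM minus HET, against 76. For HET minus WT these were 1.57% and 9.96% of members, against 0.552% and 3.05% of all genes. For HOM minus HET the shares were 10.3%, 2.55% and 13.3%, against 19.2%, 0.921% and 4.76%. Genes without flanks gave 62, 26 and 47 in the order HOM minus WT, HET minus WT and HOM minus HET. These were 6.33%, 2.65% and 4.80% of members measured that way, against 4.99%, 2.16% and 3.83% of all genes. Division of counts by CpGs per read gave 16, 2 and 11, and 23 of 33 differences of named members then lost their call. Leaving out pseudogenes gave 28 for HET minus WT, 2.67% of the members left, against 1.77% of all genes. Weighting CpGs alike in both libraries, chosen after the values were seen, gave 91, 17 and 78, kept the means at -3.51, -0.77 and -2.66 points, and ended 10 of 33 calls of named members.

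Scaling to equal autosomal levels gave 51 calls for HOM minus WT and turned its mean to 0.45 points, the mean of HOM minus HET to 0.81, and the means of the 30 clusters to 0.15 for HOM minus WT and 0.50 for HOM minus HET. HET minus WT was then -0.36 over members and -0.35 over clusters, and -0.54 over whole cluster spans. The difference of members from other genes was then 0.24 points for HOM minus WT and 0.67 for HOM minus HET, and 0.32 and 0.59 against protein-coding genes weighted to the same CpG density.

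The excess in level over other genes in HOM, HET and WT was 10.4, 10.2 and 10.6 points with 60 reads and 10.7, 10.5 and 11.1 without flanks. It was 10.3 in HOM after scaling, 4.25, 3.65 and 3.93 against protein-coding genes of the same density, and reversed at -1.29, -1.63 and -1.33 against genes of at most 30 CpGs. Named calls reversed in Olfr709-ps1 for HOM minus HET, at -2.76 without flanks and without CpGs covered over 3 times the mean, and in Olfr1092-ps1, at -0.57 with 5 kb flanks. Means of CpG levels give no calls. No other mean, count or level named here changed its sign or moved past its limits.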
